A study of Arabidopsis thaliana with 12 samples.

Results

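CYN (AT3G23490) is the Arabidopsis gene for cyanase, and it was read on the 1 probe of the array that the platform annotation assigns to this gene alone, out of 3439 probes, of which 692 have 1 gene. None of the 870 probes annotated to several genes names CYN, so the account rests on 1 probe. The gene was chosen because its intensity was much lower in the treated samples, and its difference between the groups is therefore given as a description, without a test.

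Both groups are total RNA from wild-type Arabidopsis thaliana of the ecotype Wassilevskija. In 6 samples the plants had been kept for 6 h in MS medium with sucrose at 60 mM (MS with sucrose below), and 6 samples are labelled as water, with no time. MS medium is the Murashige and Skoog mixture of mineral salts used in plant tissue culture, so medium and sugar change together, and time and handling may differ too. The sources used here do not give the organ, the age of the plants, or whether the samples of a group are separate plants.

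Cyanase breaks down cyanate together with bicarbonate, and the products are ammonia and carbon dioxide. Cyanate is toxic to proteins because it carbamoylates their amino groups, and it forms in cells from carbamoyl phosphate and from urea. The enzyme was first studied in bacteria, where a carbonic anhydrase gene lies in the same operon, and plants carry a cyanase of their own.

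CYN was lower after MS with sucrose, with all 6 treated samples below all 6 water samples, and its spot was among the brightest of the array in water. Its deposited intensity was 1.50, 1.24, 1.09, 0.943, 1.47 and 1.49 in samples 1 to 6 after MS with sucrose, and 8.99, 8.44, 12.01, 8.56, 7.65 and 7.31 in water samples 1 to 6. The groups did not overlap: the brightest sample after MS with sucrose was at 1.50 and the dimmest water sample at 7.31, which is 4.88-fold apart. Treated samples averaged 1.29 ± 0.237 (SD, n = 6) and water samples 8.83 ± 1.68 (SD, n = 6), so that the treated samples held 14.6% of the water level and were 6.86-fold lower. Whether a lower signal in such bulk RNA stands for fewer cells with the transcript or for less of it per cell cannot be told apart. Sample 3 stood above the other water samples. Without it the water mean was 8.19 ± 0.690 (SD, n = 5) and CYN was 6.36-fold lower after MS with sucrose. None of the 12 CYN values was an exact 0, the highest was 12.01% of the ceiling of 100 at which the deposited values end, and the lowest was 13.1 times the offset of 0.0718 added before taking logarithms.

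**Figure D1:**
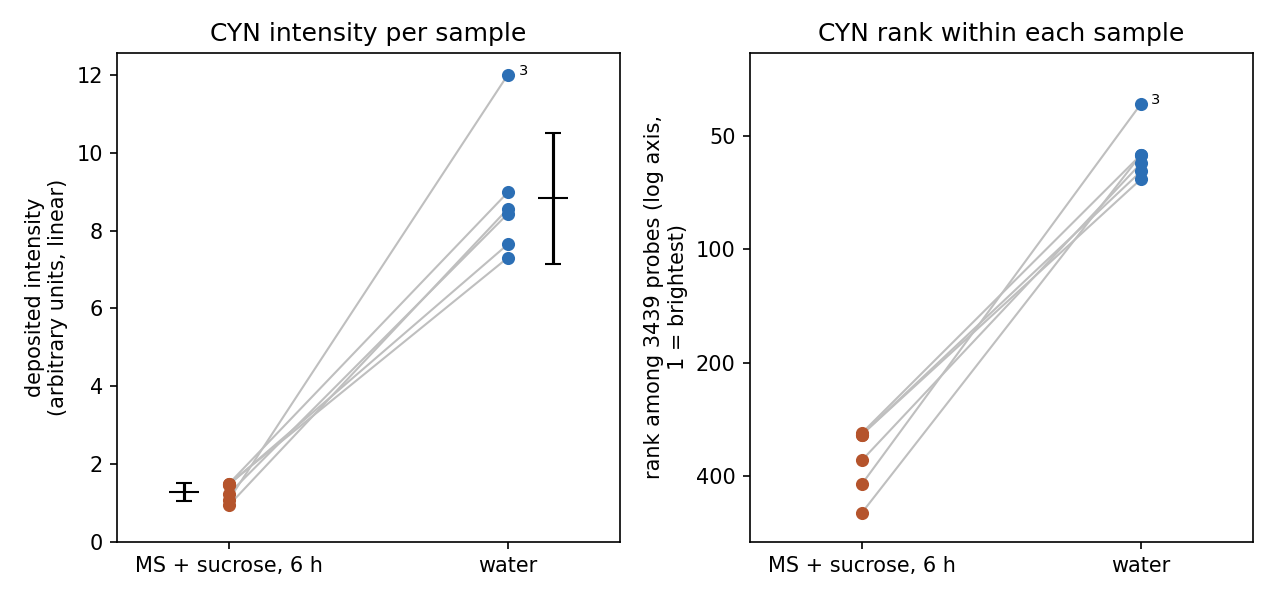
CYN in each sample, as deposited intensity on a linear axis (left panel, with mean and SD beside the points) and as rank among 3439 probes of the same sample on a log axis (right panel). Each point is a sample, grey lines join samples of the same number, and the digit 3 marks water sample 3. The 6 samples after MS with sucrose lie between 0.943 and 1.50, and the 6 water samples between 7.31 and 12.01.

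The same order of the groups was seen without any scaling between arrays, by rank within each sample. Such a rank is one of spot brightness, since the intensities of different probes do not compare transcript levels. CYN was the 308th to 502nd brightest of 3439 probes after MS with sucrose (median 337.5), and the 41st to 65th brightest in water (median 57.5). It thus lay in the top 8.96% to 14.6% of probes in the treated samples and in the top 1.19% to 1.89% in water. By mean intensity over the 692 probes with 1 gene, CYN was 61st after MS with sucrose and 13th in water. Its share of the summed signal of a sample was 0.0379% ± 0.00639 in treated samples and 0.273% ± 0.0560 in water samples (SD, n = 6 each), which is 7.21-fold lower after MS with sucrose.

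The median deposited intensity of the array moved the other way. The median of all probes lay between 0.309 and 0.339 in treated samples and between 0.171 and 0.188 in water samples. The summed signal of a sample moved far less, from 3314 to 3456 in treated samples against 3172 to 3296 in water samples. Set against the median of its own sample, CYN stood at 3.98 ± 0.720 times that median in treated samples and at 50.3 ± 11.1 times it in water samples (SD, n = 6 each), 12.6-fold lower. The size of the difference therefore depends on what CYN is set against, and its direction was the same under each of these measures.

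On the log2 scale, with values taken as log2(intensity + 0.0718) and quantile normalized, CYN averaged 0.25 ± 0.26 in treated samples and 3.09 ± 0.25 in water samples (SD, n = 6 each). The fitted log2 difference, MS with sucrose minus water, was -2.84 (SE 0.14), or 7.17-fold lower. It was -2.71 (SE 0.14) on the deposited scale, -2.73 (SE 0.14) after cyclic loess and -3.38 (SE 0.14) after centring each array on its median. The distance between the lowest water sample and the highest sample after MS with sucrose ranged over these 4 scalings from 2.21 to 2.80 on the log2 scale, against SDs within a group of 0.24 to 0.29. The median log2 difference of all probes was 0.38 as deposited, -0.29 with arrays centred on their medians, and near 0 under the other scalings, at 0.00 with quantile normalization and -0.01 with cyclic loess. Relative to that median CYN stood at -3.09 both as deposited and with median centring, at -2.85 with quantile normalization and at -2.72 with cyclic loess.

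Same-numbered samples of the 2 groups deviated together over the array as a whole, so CYN was also compared within pairs of the same number. It was lower after MS with sucrose in 6 of 6 pairs. Since the groups do not overlap, any pairing gives this count, and it adds nothing to that. The intensity was 6.00-fold lower in pair 1, 6.81-fold in pair 2, 11.1-fold in pair 3, 9.08-fold in pair 4, 5.21-fold in pair 5 and 4.91-fold in pair 6. The largest differences were in numbers 3 and 4. On the quantile normalized log2 scale the pairs averaged -2.84 ± 0.44 (SD, n = 6 pairs), from -3.50 in pair 3 to -2.39 in pair 6.

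Adjacent numbers (1 and 2, 3 and 4, 5 and 6) also deviated together over the array, so CYN was averaged over such couples. The means of numbers 1 and 2 were 1.37 after MS with sucrose and 8.71 in water, 6.37-fold lower in the treated samples. Those of numbers 3 and 4 were 1.01 after MS with sucrose and 10.3 in water, 10.1-fold lower. Those of numbers 5 and 6 were 1.48 after MS with sucrose and 7.48 in water, 5.06-fold lower. The couple with the lowest CYN after MS with sucrose was thus the one with the highest CYN in water, and the couple with the highest CYN after MS with sucrose had the lowest in water. The high water mean of numbers 3 and 4 rested on sample 3. Water sample 4 was at 8.56, below the mean of numbers 1 and 2. How many other probes have this order of couples is not given. In 4 of the 6 same-numbered pairs the normalized log2 values of CYN deviated from their group means in opposite directions. Pair 4 was among these only because its water value lay 0.01 above the mean. As deposited, that value was at 3.11 on the log2 scale, below the water mean of 3.13. No share of all probes is given for this count, so CYN is not set against the array here. Of all probes, 8.69% had their 2 largest falls in pairs 3 and 4 as CYN did, and of the 665 probes called lower, 10.4% did. This feature was looked for after the values of CYN were seen.

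**Figure D2:**
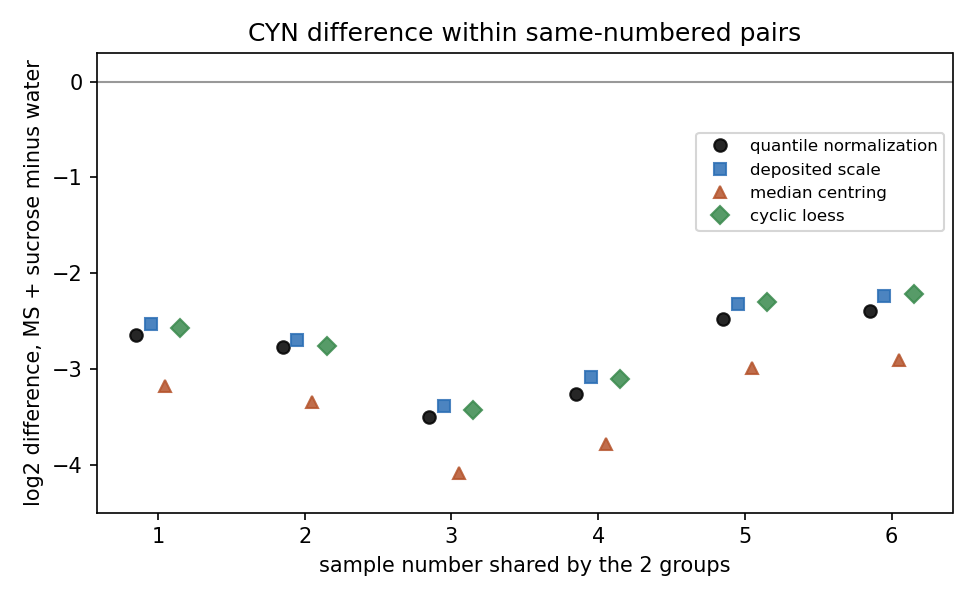
CYN log2 difference, MS with sucrose minus water, within each pair of same-numbered samples, under 4 scalings (symbols, shifted sideways so that they do not cover each other). All 6 pairs lie below 0 under each scaling, as they must where the groups do not overlap. Pair 3 is lowest, and median centring gives the largest differences, from -4.09 to -2.90.

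The spread of CYN within a group was set beside that of probes of similar mean level. The gene was chosen for its difference and not for this spread, though the choice may still bear on it. After MS with sucrose its SD on the normalized log2 scale was 0.26, against a median SD of 0.27 for the 200 probes nearest in level, and 46.5% of those probes had a smaller SD. In water its SD was 0.25, against a median of 0.17 for the 157 probes nearest in level (100 dimmer and the 57 brighter), and 81.5% of them had a smaller SD. That place among the water probes rested on sample 3. With water sample 3 left out for CYN and for the other probes, the SD of CYN was 0.11, against a median of 0.16 for the 158 probes nearest in level, and 26.6% of them had a smaller SD. Sample 3 was left out as the extreme sample of CYN, and not of the other probes. A smaller SD for CYN was thus built in, and CYN cannot be called tighter than those probes.

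Among all 3439 probes, CYN had the largest fitted difference in the lower direction after quantile normalization, unnamed probes included. In the limma fit, 665 probes were called lower after MS with sucrose, which is 19.3% of the 3439 tested, and 18.1% were called higher, both at an adjusted p under 0.05. This near-even split was shared by cyclic loess, with 627 lower and 619 higher, and not by the other scalings. With intensities as deposited the calls were 237 lower and 1519 higher. Arrays centred on their medians gave 1271 lower and 487 higher. At a log2 difference of -1 or below were 5.23% of probes, and at -2 or below 9 probes, 0.262% of all. The next probe, which is unnamed here, was at -2.67 (SE 0.48) with mean intensities of 0.516 after MS with sucrose and 2.26 in water. The other 3 of the first 5 had water means of 0.513 to 0.926, and CYN was at 8.83. Groups that do not overlap, with CYN's direction, were found for 12.6% of probes on the normalized scale and 4.36% on the deposited scale. These shares describe the array, and nothing about CYN is read from them, since CYN was chosen on this contrast.

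No other bright probe fell as far as CYN on the log2 scale, which describes a gene chosen for its fall. CYN was the 120th brightest of all probes by mean normalized level over the 12 samples. The 344 brightest probes by that measure had a median log2 difference of -0.07. Of these, 121 were called lower and 97 higher by limma, 39 were at -1 or below, and CYN was the 1 probe at -2 or below. The next of the 344 was an unnamed probe at -1.74. By the plain ratio of mean intensities, with no offset, CYN had the largest fall of the 2575 probes above 0 in all 12 samples. It was 3rd of the 3103 probes with both group means above 0, where the 2 probes ahead of it had water means of 0.0528 and 0.0687 and at least 1 exact 0 after MS with sucrose. By the plain difference of mean intensities, CYN had the 18th largest fall of all 3439 probes. Within single pairs CYN was between 2nd and 11th by size of the fall on the normalized scale, so it led in the mean of the pairs and in no single pair.

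**Figure D3:**
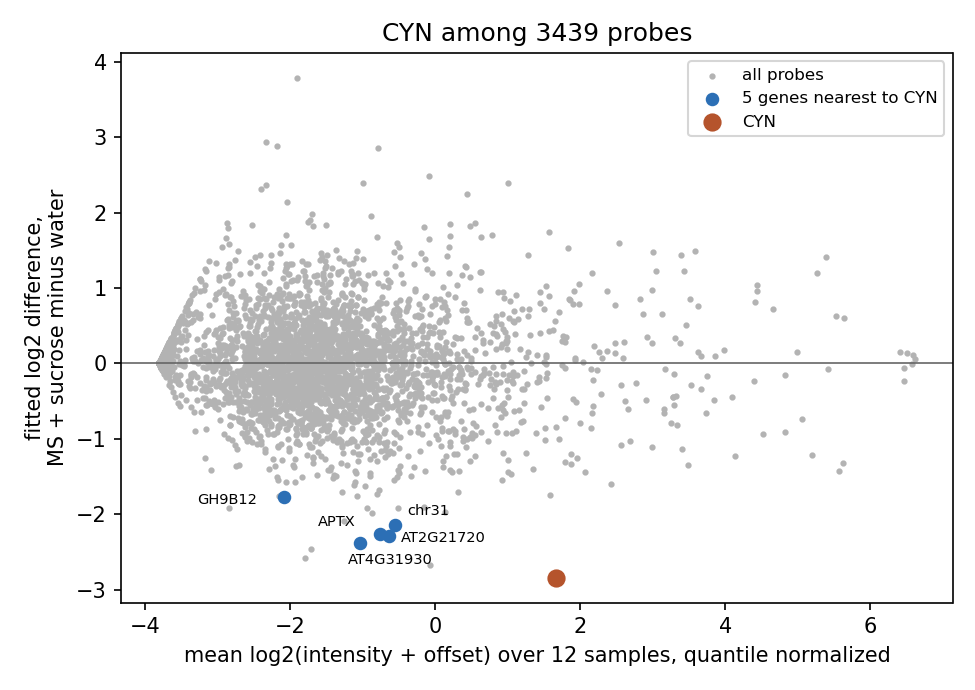
Fitted log2 difference, MS with sucrose minus water, against the mean normalized log2 level over 12 samples, for 3439 probes (grey), CYN (orange) and the 5 genes of nearest pattern (blue). CYN is the lowest point, at -2.84, and lies to the right of the other large falls, at a higher mean level.

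The order of the probes depended on how dim probes were treated, on the scaling, and on which samples were kept. With the offset at the 1st percentile of the values above 0, which is 0.00897, CYN was at -2.91 and 10 probes had a larger fall. Of these 10 probes, 9 had an exact 0 in at least 1 sample, and their water means ran from 0.0775 to 2.26. Among them 3 have a gene: AT4G31930 at -3.13 (SE 0.72), GH9B12 at -3.04 (SE 0.75), and AT4G01810, named after its values were seen, which was listed at 0 in all 6 samples after MS with sucrose and had a mean of 0.0775 in water. With cyclic loess 1 unnamed probe, with a water mean of 0.513, was ahead of CYN at -2.80. CYN was also 2nd without sample 2 or without sample 4 of MS with sucrose, where the unnamed probe next to it in the main order was at -2.99 and -2.79.

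The 5 genes, each on its own probe, whose profile over the 12 samples was most like that of CYN were found by the root mean square distance between profiles on the normalized log2 scale, each centred on its own mean, among 574 genes above 0 in at least 10 samples. They were AT2G21720 at a distance of 0.35, chr31 (AT1G05490) at 0.48, AT4G31930 at 0.60, APTX (AT5G01310) at 0.62 and GH9B12 (AT2G44570) at 0.73, where the median over the 574 genes was 1.47. This measure favours genes with a large fall, so their differences are a description too. They were 3.43-fold (GH9B12) to 5.20-fold (AT4G31930) lower after MS with sucrose on the normalized scale, against 7.17-fold for CYN. These sizes depend on the processing. As deposited, their log2 differences ran from -1.29 (GH9B12) to -1.92 (AT4G31930), against -2.71 for CYN. With intensities as deposited, 3 of these 5 were again among the nearest 5. Among all probes above 0 in at least 10 samples, 1 lay nearer to CYN than chr31 and 6 nearer than AT4G31930. For APTX the count was 8, and for GH9B12 it was 22.

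AT2G21720 was also the nearest of the 2857 probes above 0 in at least 10 samples, unnamed ones included. Its intensity was 0.265, 0.247, 0.300, 0.201, 0.436 and 0.340 in samples 1 to 6 after MS with sucrose, and 1.55, 1.43, 1.16, 1.28, 0.954 and 0.961 in water samples 1 to 6. The groups did not overlap, and the log2 difference was -2.29 (SE 0.15). Unlike CYN, its water samples were highest in numbers 1 and 2, and water sample 3 was not raised.

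The gene chr31, for a chromatin remodeling protein of the CLASSY family that acts in RNA-directed DNA methylation, had an intensity of 0.357 ± 0.126 in treated samples and 1.24 ± 0.0656 in water samples (SD, n = 6 each). Its lowest treated sample was number 3, at 0.146, and its water samples lay close together, between 1.15 and 1.30. AT4G31930 had a mean of 0.223 after MS with sucrose, where sample 2 was listed at 0, and 0.926 in water. APTX, an aprataxin-like gene named after a human DNA repair protein, was at 0.0725 and 0.0564 in samples 3 and 4 of MS with sucrose and at 0.386 to 0.557 in the other 4, against 0.752 to 1.44 in water. The treated samples with the lowest APTX thus bore the same numbers as those with the lowest CYN, in a gene picked for a profile like that of CYN. In water the order was the reverse at both ends. There APTX was lowest in sample 3, at 0.752, where CYN was highest, at 12.01. Water samples 5 and 6 had the highest APTX, at 1.41 and 1.44, and the lowest CYN, at 7.65 and 7.31. GH9B12, of glycosyl hydrolase family 9, whose plant members cut glucan chains of the cell wall, was listed at 0 in treated samples 4 and 6, reached 0.232 in treated sample 1, and lay between 0.260 and 0.299 in water.

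**Figure D4:**
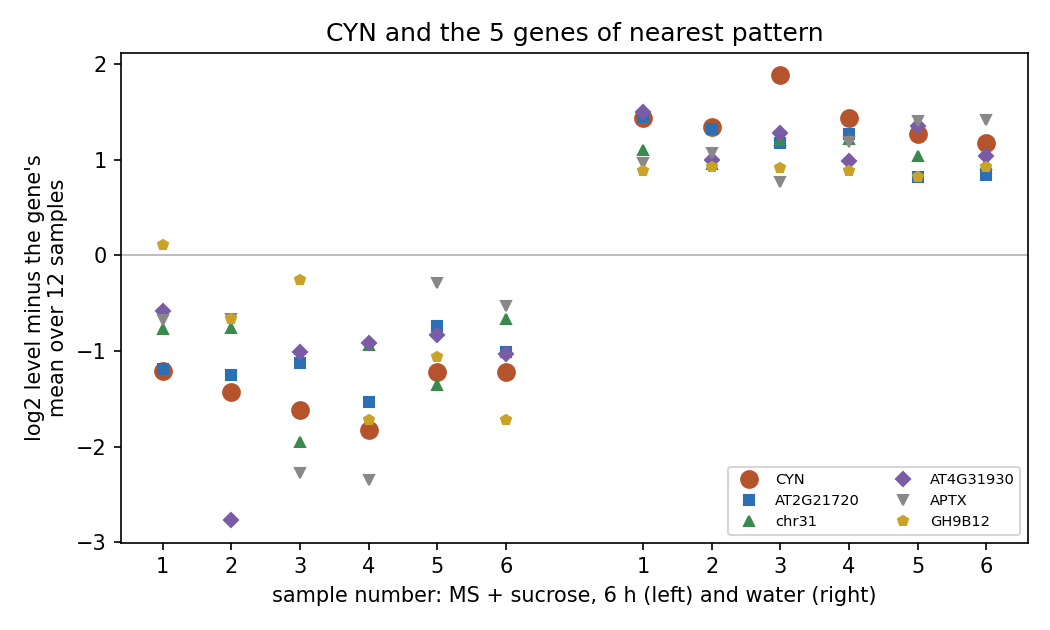
Normalized log2 level of CYN (large circles) and of the 5 genes of nearest pattern (small symbols) in each sample, minus each gene's mean over the 12 samples, with MS with sucrose left and water right. CYN lies above 0 in the 6 water samples and below 0 in the 6 others. AT4G31930 in treated sample 2 and APTX in treated samples 3 and 4 lie farthest below.

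The genes that handle the substrates and products of cyanase could not be set beside it. Of 49 genes listed for carbonic anhydrases, urea and arginine breakdown, carbamoyl phosphate, ammonium, nitrate and cyanide metabolism, 0 had a probe of their own. Of these, 2 of the 4 genes of carbamoyl phosphate metabolism stood on probes shared with other genes, and no value is given for them. The 10 genes next to CYN on chromosome 3, 5 on each side in the gene table, had no probe either, alone or shared.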

How the data were processed

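The deposited values are the authors' linear spot intensities, 1 per probe and sample, from 0 to a ceiling of 100. The array type, the background correction and any scaling by the authors are not stated in the labels or the file. Exact zeros make up 13.6% of values. The members and lists were chosen with earlier results of these data known. Values were taken as log2(intensity + 0.0718), the offset being the 10th percentile of values above 0. They were quantile normalized, because sample medians lay 0.76 apart on that scale. All 3439 probes were fitted with limma 3.58.1 in R 4.3.3 (lmFit, eBayes with a trend, two-sided, 6 samples a group). P-values were adjusted by the Benjamini-Hochberg method over all probes, with a threshold of 0.05. They rest on the spread between samples that may be technical repeats, and precision is limited by the number of arrays. Gene names come from the platform annotation, updated through gene identifiers with the TAIR10.1 gene table, where 690 of 692 probes of 1 gene matched.

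Genes were named by a fixed rule: CYN, list members with a probe, the 5 of nearest pattern, chromosome neighbours, and genes falling further than CYN. Across probes, deviations from the group means correlated at 0.174 to 0.390 in the 6 same-numbered pairs, and 11 of 12 samples were closest to their own number, and samples were taken as paired by number on this ground alone, since the labels do not explain the numbers. Adjacent numbers correlated at 0.133 to 0.157 within MS with sucrose and at 0.121 to 0.309 within water, so the adjusted p-values may be too small. The fit was tested on simulated data (10 runs, 3439 probes, 200 of them changed, errors independent). Both groups were drawn from the means and SDs of the water samples and were not normalized again. There 94.3% of log2 changes of 1 and 71.9% of those of 0.5 were recovered, and 5.77% of calls were false. Far more probes were called in the real data, so these rates need not hold for them. Alternatives were other scalings, offsets and variance models, zeros as missing, a filter on dim probes, a replicate block, averaged adjacent numbers and samples left out. Figures were drawn with matplotlib 3.10.9.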

Additional observations from a re-analysis of the deposited data

Results flagged for a closer look

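Water sample 3 stood apart for CYN. Its gap to the next highest water sample was 0.643 of the range of the 6 water samples in deposited intensity, and 0.637 on the normalized log2 scale, just past the gap that marks a sample as far from the others. For AT4G31930, sample 2 of MS with sucrose was listed at 0, and its gap to the next lowest was 0.715 of the range. These were 2 of 12 sets of 6 samples, where chance marks about 1 set in 20.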

How the results depend on the processing

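The CYN difference was negative under all 26 alternatives, from -3.38 with median centring to -2.57 without numbers 3 and 4 of both groups, the 2 alternatives that moved it by more than its within-group SD. Leaving out single samples gave -2.91 to -2.73. The replicate block left it at -2.84 (SE 0.16) and left CYN first, with 678 probes lower and 638 higher. CYN stood first in 20 alternatives, 2nd with cyclic loess, without numbers 1 and 2, and without numbers 3 and 4, 11th with the offset at the 1st percentile, and 1st to 2nd (2nd without sample 2 or 4 of MS with sucrose) with single samples left out. Main counts of 665 probes lower and 624 higher became 237 and 1519 on the deposited scale, 1271 and 487 under median centring, 402 and 349 with adjacent numbers averaged, and 294 and 262 with a replicate block on these averages, and ran from 589 to 673 lower and 544 to 619 higher with single samples left out. The fewer calls on averages come with 3 against 3 values; the cause of the other shifts was not tested. Of the 5 genes nearest to CYN, 3 were shared with the deposited scale and 5 with distances over same-numbered differences. Their log2 differences stayed negative but varied in size. From the deposited scale to the offset at the 1st percentile, AT2G21720 ran from -1.81 to -2.59 and chr31 from -1.68 to -2.43. Between the same settings AT4G31930 ran from -1.92 to -3.13, APTX from -1.81 to -2.73 and GH9B12 from -1.29 to -3.04. The water SD of CYN was 0.11 without sample 3. Leaving out numbers, the block on averages, and the spread under other scalings or without water sample 3 were added after seeing the data. The pathway genes had no probe of their own, so no alternative was run for them. What the ceiling of 100 and the zeros stand for is not stated, which limits any reading of very bright or very dim probes.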
